A study of Mus musculus with 7 samples.

Results

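The genes examined were Rasa4 and 8 others of the Ras switch: the Ras GTPase-activating proteins Rasa1, Rasa2, Rasa3, Rasal3 and Nf1, the SPRED proteins Spred1 and Spred2, and Nras itself. They were chosen by name, and all 9 were found among the 16760 genes of the deposited table. RNA was sequenced from mouse cells negative for CD150 that the labels call HSC, for haematopoietic stem cell, and every sample is of strain C57/B6. The 5G2del group (3 libraries) carries a deletion in band 5G2 of chromosome 5, a counterpart of human band 7q22, and the WT group (4 libraries) does not. The age and sex of the animals, the number of animals behind a library, and the size and zygosity of the deletion are not stated in the labels. Nothing says that libraries came from separate animals, so p-values measure only the spread between libraries, which can be technical.

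Ras proteins are small GTPases that carry growth signals from cytokine receptors while GTP is bound, and go silent once the GTP is hydrolysed. GTPase-activating proteins (GAPs) speed that hydrolysis and so act as brakes, and SPRED proteins bring neurofibromin, the GAP encoded by Nf1, to the membrane where Ras sits. Activating mutations of NRAS and loss of NF1 are recurrent in human myeloid malignancies, and the human RASA4 gene lies in 7q22, a band often lost in the same diseases.

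Rasa4 is the member on chromosome 5, which carries the deletion, but the labels give no borders that would place it inside or outside. It encodes CAPRI, a GAP that calcium recruits to the plasma membrane, and lies on the plus strand at chr5:136083916-136111860 of GRCm38 (mm10). None of the other 8 members lies on chromosome 5: in the same build Rasa1 is at chr13:85214780-85289130, Rasa2 at chr9:96539300-96631617, Rasa3 at chr8:13566948-13677603 and Rasal3 at chr17:32390659-32403583, all on the minus strand. Nf1 is at chr11:79339693-79581612, Spred1 at chr2:117121374-117182279, Spred2 at chr11:19924375-20024026 and Nras at chr3:103058285-103067914, all on the plus strand. All 9 are annotated as protein-coding, and the values count reads over a whole gene. The bases just before the annotated start of Rasa4 (RefSeq, GRCm38.p6, chr5:136083666-136083915, plus strand) are shown because Rasa4 lies beside a run of lower values along this chromosome, and those of Rasal3 (the first of its 2 listed starts, chr17:32403583-32403832, minus strand) because it and Rasa3 had the highest levels per length among the brakes. Capitals mark matches to GGGCGG, the core that SP-family factors bind, on either strand.
Rasa4: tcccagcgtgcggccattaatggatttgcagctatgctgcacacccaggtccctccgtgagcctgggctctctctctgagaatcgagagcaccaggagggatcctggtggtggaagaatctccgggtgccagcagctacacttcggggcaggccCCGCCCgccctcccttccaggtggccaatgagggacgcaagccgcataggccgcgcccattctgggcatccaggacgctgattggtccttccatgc
Rasal3: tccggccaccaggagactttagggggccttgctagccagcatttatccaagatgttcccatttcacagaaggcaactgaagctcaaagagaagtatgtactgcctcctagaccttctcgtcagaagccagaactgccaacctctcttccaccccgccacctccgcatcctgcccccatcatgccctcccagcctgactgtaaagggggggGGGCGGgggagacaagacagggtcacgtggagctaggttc
The Rasa4 stretch held 13 CpG dinucleotides and the Rasal3 stretch 6, against a median of 6 over 32851 mouse promoter stretches of the same 250 bases. Spred1 had the most among the members, with 31. The GGGCGG core occurred once in each of the printed stretches, as it did at least once in 32.7% of all promoter stretches. The other cores searched, on both strands, had no match in the Rasa4 or Rasal3 stretch. These were the ETS core CCGGAA, found in 12.0% of all promoter stretches, and the RUNX core TGTGGT, found in 14.0% of them. They were also the GATA core AGATAA, found in 9.99% of all promoter stretches, and the AP-1 core TGANTCA, found in 6.75% of them. Each printed stretch thus holds a single match, which overlaps no other, and a match describes the letters alone.

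The values used were the authors' log2 CPM, that is log2 read counts scaled per library, so a step of 1 on this scale is a doubling. A library's expected counts, added over the table, came to between 37930174 and 52194274, and the divisor behind the CPM was between 34865420 and 55716549. That divisor was below the sum in 5G2del-C (41220903 against 47664360) and WT-C (34865420 against 42038974), so it is not the plain library size. The members had between 230 and 5848 expected counts in a library. Expected counts are reads as divided among genes by RSEM. Libraries are named by group and letter in the order of the table's columns, because the column names show the group and not the sample. WT-B was unlike the rest in its number of undetected genes, 1104, where the other 6 libraries had 83 to 492. The 10 stem and progenitor markers, Kit, Cd34 and Flt3 among them, were all measured and summed to between 1840 and 1990 CPM in 5G2del and between 1780 and 2150 CPM in WT. Slamf1, which encodes the sort marker CD150, was low, and averaged 0.56 log2 CPM in 5G2del libraries and -1.10 in WT libraries. Its groups did not overlap, with 0.40 to 0.65 in 5G2del and -2.22 to -0.26 in WT. Of all genes, 5.70% had no overlap. In such bulk samples, fewer cells of a type and less RNA per cell cannot be told apart.

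Rasa4 was lower on average in 5G2del, but it was also the member that varied most from library to library, and the difference did not pass the test. It measured 3.66, 2.42 and 4.00 log2 CPM in the 5G2del libraries A to C, against 4.57, 3.39, 4.20 and 4.60 in WT-A, WT-B, WT-C and WT-D. The groups overlapped: WT-B lay below 5G2del-A and 5G2del-C, and 5G2del-B was lowest of all 7 libraries. Mean log2 CPM was 3.36 ± 0.83 for the 3 5G2del libraries and 4.19 ± 0.56 for the 4 WT libraries (SD). The log2 fold change, 5G2del over WT, was -0.83 ± 0.40 (SE), or 0.564 of the WT level with a 95% interval from 0.305 to 1.04. That interval holds both 0.5 of the WT level and no difference. In limma-trend, a linear model across all genes, the unadjusted p was 0.0646 and the adjusted p 0.989 (Benjamini-Hochberg over 16760 genes). The two-sided exact permutation test over the 35 ways to split the libraries gave p = 0.171, where 0.0286 is the smallest p it can give. In the authors' deposited table the log2 fold change of Rasa4 is -0.86 and its p-value 0.0595.

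**Figure D1:**
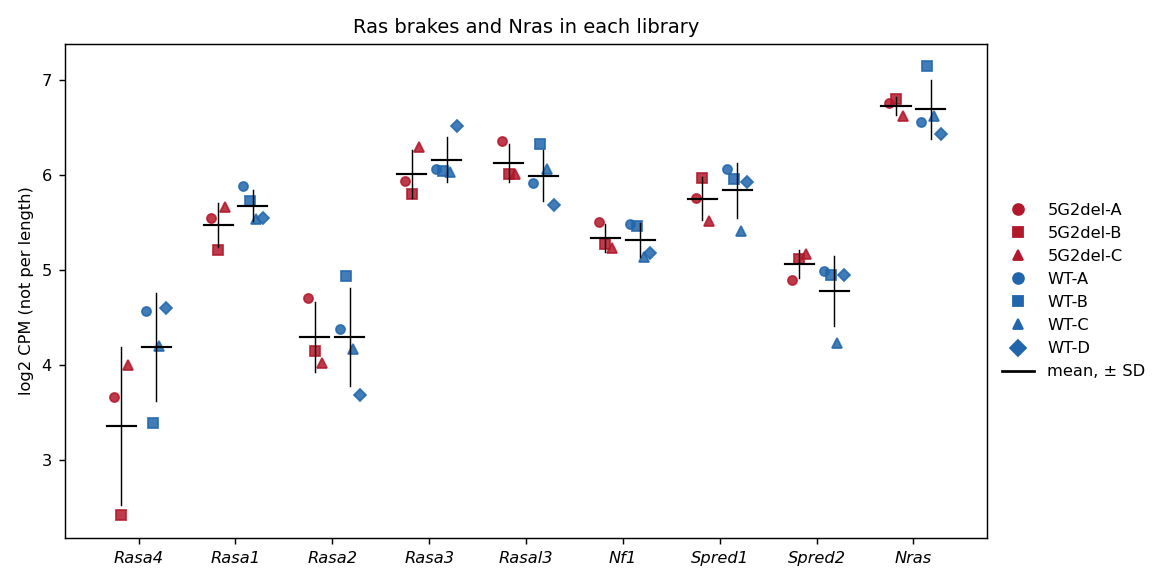
Level of each member in each library, in log2 CPM, with 5G2del (red) left of WT (blue); symbols mark the library letter, and black lines the mean ± SD. Rasa4 spreads widest, with 5G2del-B at 2.42 and WT-B at 3.39, and the 2 groups overlap for every member.

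The size of the Rasa4 difference rested most on 1 library, 5G2del-B. Without 5G2del-B the log2 fold change was -0.36. Leaving out any other single library gave values from -1.14 (without 5G2del-C) to -0.69 (without WT-D). The unadjusted p in limma-trend was 0.0125 without WT-B and 0.025 without 5G2del-C, but 0.345 without 5G2del-B. No left-out library brought the adjusted p below 0.833. The within-group SD of Rasa4 was 0.68 on the log2 scale, against a median of 0.36 over the 1035 genes of similar expression level, of which 95.1% had a smaller SD. An antisense transcript, Gm15701, shares 182 exon bases with Rasa4 and the microRNA gene Mir7035 shares 82. Strand is not stated for the counting, and reads of these genes may have been counted for Rasa4 there.

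Rasa4 lies between expressed genes with values near 0 and a run of lower ones, and where that run begins was not resolved, since neither Rasa4 nor Polr2j, the next gene, had an unadjusted p under 0.05 in limma-trend (0.0646 and 0.0891). The 2 expressed genes just before it had differences near 0: Ywhag, which encodes a 14-3-3 protein, had a log2 fold change of 0.0031 ± 0.20 (SE) and Dtx2, a ubiquitin ligase, of 0.10 ± 0.31, whose end lies 51043 bases before the start of Rasa4. Neither sign was stable, with Ywhag between -0.13 (without WT-C) and 0.12 (without WT-B) and Dtx2 between -0.04 (without 5G2del-A) and 0.33 (without 5G2del-C). On the other side Polr2j, an RNA polymerase II subunit that starts 4770 bases past Rasa4, had -0.52 ± 0.28, and Lrwd1, a partner of the origin recognition complex, had -0.90 ± 0.26. Among protein-coding genes with a mean log2 CPM over 0 that start within 1 Mb, 13 of 13 that start above Rasa4 were lower in 5G2del (median -0.71), as were 4 of 12 that start below it (median 0.06). Over all genes, 46.7% had a log2 fold change below 0. This stretch of lower values was known from earlier results of these data, so the counts describe it and do not test it.

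The 5G2del libraries did not keep the same order at Rasa4 as at its neighbours. Relative to the WT mean, Rasa4 lay lower by the most in 5G2del-B (-1.76), with -0.52 in 5G2del-A and -0.19 in 5G2del-C. Lrwd1 was at -1.32 in 5G2del-C, -0.77 in 5G2del-A and -0.60 in 5G2del-B. Polr2j was at -0.45, -0.46 and -0.65 in the 5G2del libraries A to C.

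**Figure D2:**
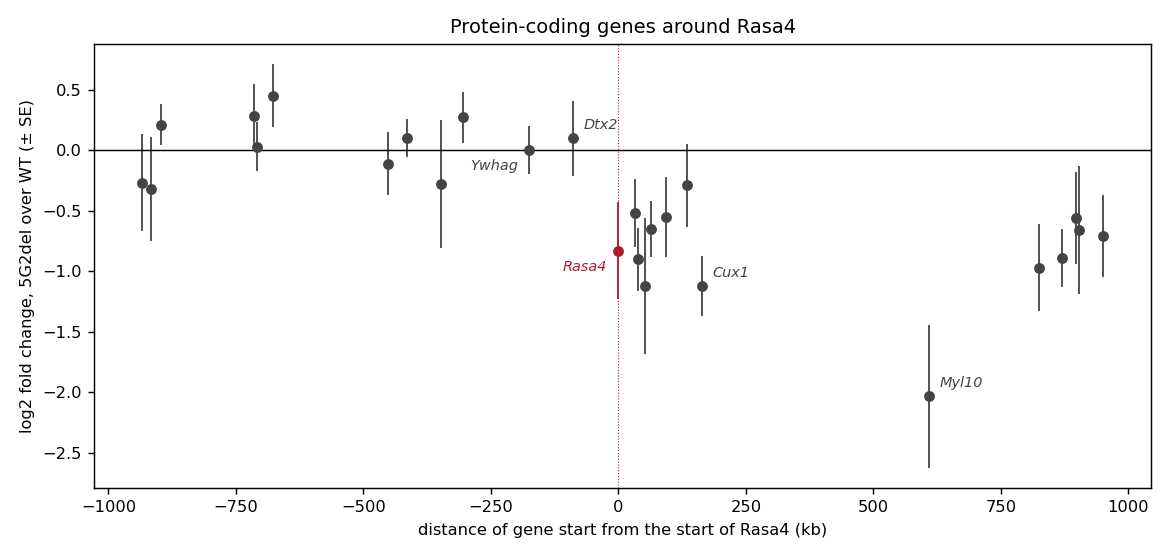
Log2 fold change, 5G2del over WT, of expressed protein-coding genes by the distance of their start from that of Rasa4 in kb; bars are ± SE, and Rasa4 is in red. Ywhag and Dtx2 lie near 0 just before Rasa4, and the 13 genes after it lie below 0.

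Of the GAPs on other chromosomes, Rasa1 had the largest mean difference. It encodes p120 RasGAP, which binds activated receptors through its SH2 domains. Rasa1 measured 5.55, 5.21 and 5.66 log2 CPM in the 5G2del libraries A to C, against 5.88, 5.73, 5.54 and 5.55 in WT-A to WT-D. The groups overlapped, with 5G2del-B lowest as for Rasa4. Its log2 fold change was -0.20 ± 0.18 (SE; limma unadjusted p = 0.279), and -0.07 without 5G2del-B. Rasa1 shares 12 exon bases with Ccnh on the other strand.

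Rasa2 and Rasa3 belong to the GAP1 family, as Rasa4 does, and Rasa3, which also acts on Rap1, is needed for normal platelets and red cells in mice. Rasa2 measured 4.71, 4.15 and 4.02 log2 CPM in the 5G2del libraries A to C, against 4.38, 4.94, 4.17 and 3.69 in WT-A to WT-D. Both ends of its range were WT libraries, and the log2 fold change was -0.0011 ± 0.30 (SE), its sign changing with the libraries kept (-0.21 without 5G2del-A, 0.22 without WT-B). Rasa3 measured 5.94, 5.80 and 6.29 log2 CPM in the 5G2del libraries A to C, against 6.06, 6.04, 6.03 and 6.51 in WT-A to WT-D. Here 5G2del-C and WT-D were the high libraries of their groups, and the log2 fold change was -0.15 ± 0.19 (SE; limma unadjusted p = 0.434), or -0.03 without WT-D and -0.29 without 5G2del-C.

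Rasal3, a GAP that blood cells express, measured 6.36, 6.01 and 6.01 log2 CPM in the 5G2del libraries A to C, against 5.91, 6.32, 6.06 and 5.68 in WT-A to WT-D. WT-D was lowest, 5G2del-A and WT-B were highest, and the log2 fold change was 0.13 ± 0.19 (SE), or 0.01 without 5G2del-A. Rasal3 shares 635 exon bases with an antisense gene, CT485616.1, whose log2 CPM averaged 2.26 in 5G2del and 2.50 in WT. Nf1 had the smallest within-group SD of the 9, 0.17 on the log2 scale, measuring 5.51, 5.27 and 5.23 log2 CPM in the 5G2del libraries A to C, against 5.48, 5.46, 5.14 and 5.18 in WT-A to WT-D. Its log2 fold change was 0.02 ± 0.17 (SE), with a 95% interval from -0.36 to 0.40, and the sign was not stable, at -0.07 without 5G2del-A and 0.07 without WT-A. Evi2b, which lies inside an intron of Nf1 on the other strand and shares no exon base with it, averaged 6.51 in 5G2del and 6.70 in WT on the log2 CPM scale.

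The SPRED genes had small differences of opposite sign. Spred1, which escorts neurofibromin to the membrane and whose human counterpart is mutated in Legius syndrome, measured 5.76, 5.97 and 5.52 log2 CPM in the 5G2del libraries A to C, against 6.06, 5.96, 5.41 and 5.92 in WT-A to WT-D. WT-C and 5G2del-C were the low libraries of their groups, and the log2 fold change was -0.09 ± 0.20 (SE), or -0.23 without WT-C and 0.03 without 5G2del-C. Spred2, its close relative, measured 4.90, 5.12 and 5.17 log2 CPM in the 5G2del libraries A to C, against 4.99, 4.95, 4.23 and 4.95 in WT-A to WT-D. WT-C alone was low, and the log2 fold change of 0.28 ± 0.22 (SE; limma unadjusted p = 0.231) came to 0.10 without it.

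Nras, the protein these brakes act on, measured 6.76, 6.80 and 6.62 log2 CPM in the 5G2del libraries A to C, against 6.56, 7.14, 6.62 and 6.43 in WT-A to WT-D. The WT libraries lay on both sides of the 5G2del libraries, with WT-B highest. Its log2 fold change was 0.04 ± 0.18 (SE), with a 95% interval from -0.36 to 0.44, or 0.19 without WT-B and -0.05 without WT-D.

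Across the 9 members, 5 were lower in 5G2del and 4 higher, and the median of their log2 fold changes was -0.0011, beside 0.03 over all genes. No member had an unadjusted p under 0.05 in limma-trend, where 3.91% of all genes did, and in none were the groups without overlap, where 5.70% of all genes were. Adjusted over all genes, limma-trend called 0 of 16760 genes, with 656 at an unadjusted p under 0.05, and the authors' deposited table held 0 at an adjusted p under 0.05 and 625 at an unadjusted one. The 95% intervals show what these libraries could resolve. For the 8 members other than Rasa4 the interval ended above a log2 fold change of -1, so loss of 0.5 of the transcript lay outside it, with limits on the linear scale between 0.633 and 1.70 of the WT level.

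**Figure D3:**
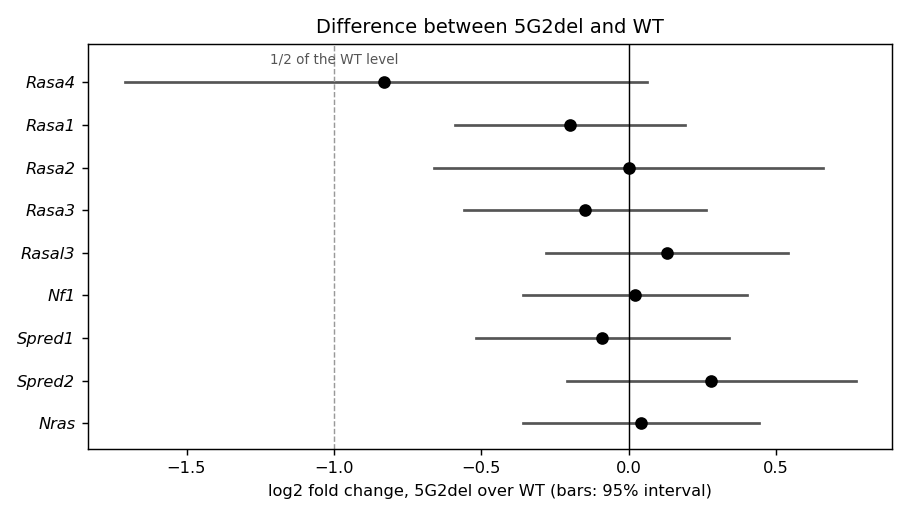
Log2 fold change, 5G2del over WT, of each member with its 95% interval in limma-trend; the dashed line at -1 marks 0.5 of the WT level. Every interval holds 0, and that of Rasa4, from -1.71 to 0.06, is the one that also holds -1.

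To compare levels between genes, CPM was divided by the exon length of each gene in kb (the union of its annotated exons in GENCODE M21). Nras was highest, at 4.31 ± 0.09 log2 CPM per kb in the 3 5G2del libraries and 4.27 ± 0.31 in the 4 WT libraries (mean ± SD, as for the levels that follow). It lay above Rasal3 in 7 of 7 libraries, by 0.53 ± 0.15 on the log2 scale (SD, n = 7). Rasal3, at 3.83 ± 0.20 in 5G2del and 3.70 ± 0.27 in WT, and Rasa3, at 3.66 ± 0.26 in 5G2del and 3.81 ± 0.23 in WT, did not differ beyond their spread (Rasal3 higher in 4 of 7 libraries). Below them came Spred1, Rasa1 and Spred2, between which the order changed with the library, and then Nf1, under Spred2 in 7 of 7 libraries by 1.35 ± 0.30 on the log2 scale. Rasa4 was near the foot of the order, at 0.46 ± 0.83 log2 CPM per kb in 5G2del and 1.29 ± 0.56 in WT. Nf1 lay above Rasa4 in 4 of 7 libraries, the 3 5G2del libraries and WT-B, and below it in WT-A, WT-C and WT-D. The mean difference was 0.41 ± 0.8 on the log2 scale (SD, n = 7, both groups together), so their order was not resolved. Rasa4 was next to Rasa2, at 0.31 ± 0.37 in 5G2del and 0.31 ± 0.52 in WT, and above Rasa2 in 5 of 7 libraries.

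Summed over the 6 GAPs, the level was 38.6 ± 4.48 CPM per kb in 5G2del and 40.8 ± 1.63 in WT (SD over 3 and 4 libraries). Only 5G2del-B, at 33.4, lay below the WT range of 38.7 to 42.6, with 5G2del-A at 41.4 and 5G2del-C at 41.0. Rasal3 and Rasa3 made up most of the sum. Rasal3 held 37.3% ± 4.57 of the sum in 5G2del and 32.3% ± 5.67 in WT, and Rasa3 held 33.1% ± 4.27 in 5G2del and 34.8% ± 5.94 in WT. Rasa4 held 4.09%, 2.15% and 5.22% in the 5G2del libraries A to C, against 7.80%, 3.29%, 6.34% and 7.86% in WT-A to WT-D. WT-B was again the WT library within the 5G2del range. These shares depend on exon lengths, and the isoforms in use may be shorter than the union of exons.

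The scaling between libraries drops out when Rasa4 is set against the other GAPs within a library. Relative to the mean of the other 5 GAPs, and with the WT mean set to 0, Rasa4 was at -0.65, -1.56 and -0.14 on the log2 scale in the 5G2del libraries A to C, against 0.33, -1.01, 0.11 and 0.57 in WT-A to WT-D. The overlap through WT-B was therefore present without any scaling between libraries. Set against Nras per kb, the sum of the 6 GAPs was 1.95 ± 0.319 times the Nras level in 5G2del and 2.14 ± 0.393 times in WT.

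**Figure D4:**
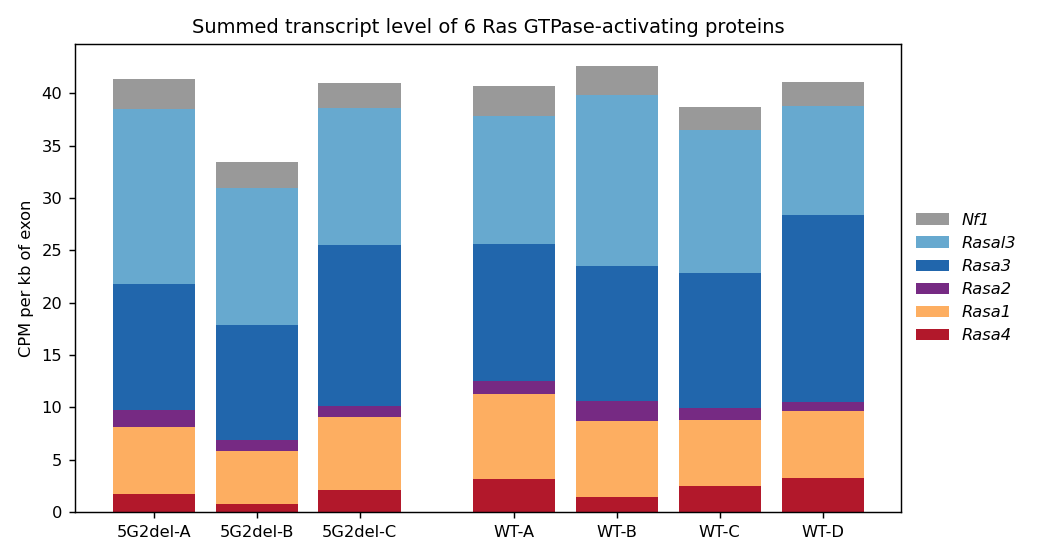
Stacked level of the 6 GAP transcripts in each library, in CPM per kb of exon, with 5G2del libraries left of WT libraries. Rasal3 and Rasa3 fill most of each bar, Rasa4 is the band at the foot, and 5G2del-B has the lowest sum at 33.4 CPM per kb.

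The 5 genes whose profile over the 7 libraries was most like that of Rasa4, by the root mean square difference of mean-centred log2 CPM, were Gm44283 (0.26), the histamine receptor gene Hrh2 (0.30), the adaptor gene Lat2 (0.33), the transcription factor gene Bhlhe40 (0.34) and the interferon-induced GTPase gene Iigp1 (0.36). The median over the 12846 genes compared was 0.80, and Rasa4 itself varied by 0.71 about its own mean. The 5 were picked for this likeness. That they share with Rasa4 the lowest library of each group, 5G2del-B and WT-B, and its direction, follows from the choice. Bhlhe40, for example, measured 3.69, 2.52 and 3.98 log2 CPM in the 5G2del libraries A to C, against 3.94, 2.92, 4.52 and 4.04 in WT-A to WT-D. Their log2 fold changes ran from -0.88 for Iigp1 to -0.43 for Lat2. Without 5G2del-B those of Hrh2, Lat2, Bhlhe40 and Gm44283 came to -0.25, 0.05, -0.02 and -0.23, while that of Iigp1 stayed at -0.75. Of the other members, Rasa3 came nearest, at place 665, and Rasa1 was at place 901.

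Markers of other blood cells moved between libraries as well. The 8 measured of 12 mature neutrophil and monocyte genes summed to 1250 CPM in 5G2del-A and 314 CPM in WT-A, and to between 27.3 and 63.8 CPM in the other libraries. The 5 measured of 7 macrophage and dendritic cell genes summed to between 2.78 and 4.29 CPM in 5G2del and between 5.25 and 8.64 CPM in WT. Of those 5 genes, all low in level, 3 were lower in 5G2del and 2 higher, with log2 fold changes from -1.64 to 1.29. The 9 measured of 10 erythroid genes summed to between 37.7 and 99.0 CPM in 5G2del and between 75.7 and 244 CPM in WT, with WT-B highest. The 6 measured of 8 megakaryocyte and platelet genes summed to between 27.0 and 43.8 CPM in 5G2del and between 20.8 and 34.1 CPM in WT. B cell genes (5 of 8 measured) summed to between 56.8 and 536 CPM in 5G2del and between 31.4 and 133 CPM in WT. T and NK cell genes (4 of 9 measured) summed to between 52.3 and 86.2 CPM in 5G2del and between 29.2 and 54.3 CPM in WT. Of those 4 T and NK cell genes only Nkg7 was higher in 5G2del, and 3 were lower. Nkg7 averaged 5.66 log2 CPM in 5G2del and 4.49 in WT. Stromal and endothelial genes (5 of 7) summed to between 40.7 and 62.0 CPM in 5G2del and between 40.9 and 70.3 CPM in WT. Ly6g, Cd3e and Adgre1 were not analysed here. The part of these cells in the values of Rasa4 and the other members was not tested.

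Of 63 other genes of the Ras pathway, grouped by role, 58 were measured. In 5G2del 27 were higher and 31 lower. At an unadjusted p under 0.05 in limma-trend 3 were lower and 0 higher, where 2.24% of all genes were lower and 1.68% higher, and 0 passed the adjusted threshold. The 3 were Dusp5, Spry2 and Rasgrp3. In 3 of the 58 the groups did not overlap, namely Dusp5, Rit1 and Map2k1, where 5.70% of all genes had no overlap. The count at an unadjusted p under 0.05 came to 6 without 5G2del-A and to 1, Dusp5, without 5G2del-B.

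The other GAPs (4 of 4 measured) had 1 gene higher and 3 lower. Dab2ip, which also binds the adaptor Dab2, had a log2 fold change of 0.10 ± 0.19 (SE; -0.01 without WT-C). Of the other SPRED and Sprouty genes (4 of 5 measured), Spry2, which damps signalling from receptor tyrosine kinases, measured 4.29, 3.37 and 3.58 log2 CPM in the 5G2del libraries A to C, against 4.31, 5.16, 4.63 and 4.29 in WT-A to WT-D. The groups met at 5G2del-A and WT-D, and the log2 fold change was -0.85 ± 0.29 (SE; limma unadjusted p = 0.0132). Spry1, of the same family, had 0.12 ± 0.34 and turned to -0.08 without WT-B.

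Among the 8 other Ras-family GTPases 4 were higher and 4 lower, with a median log2 fold change of -0.03. Rap1a and Rap1b, the GTPases of integrin activation, had 0.04 ± 0.17 (SE; -0.07 without 5G2del-A) and 0.07 ± 0.20 (-0.10 without WT-B). Per kb, Hras was at 1.41 ± 0.60 log2 CPM per kb in 5G2del and 1.51 ± 0.16 in WT (SD), below Nras in 7 of 7 libraries.

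Exchange factors load Ras with GTP and so oppose the brakes, and 7 of 10 were measured, 4 higher and 3 lower in 5G2del. Rasgrp3, activated by diacylglycerol, was low in level, at 1.41, -0.20 and -2.12 log2 CPM in the 5G2del libraries A to C, against 1.81, 2.52, 1.74 and 0.82 in WT-A to WT-D. The groups overlapped through 5G2del-A, and its log2 fold change was -2.02 ± 0.79 (SE; limma unadjusted p = 0.0255), or -1.12 without 5G2del-C. Sos2, the relative of the main receptor-coupled exchange factor, had -0.31 ± 0.22 (-0.08 without 5G2del-C), and Rapgef1, which acts on Rap1, had 0.18 ± 0.24 (0.0066 without WT-C).

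Further along the pathway the medians lay close to that of all genes. The 10 receptor-proximal adaptors had a median log2 fold change of -0.04, with the ubiquitin ligase gene Cbl at -0.19 ± 0.18 (SE; -0.05 without 5G2del-C) and Crkl at 0.29 ± 0.18. The 5 genes of Ras turnover and RAF activation had a median of -0.01, with Cul3 at -0.01 ± 0.15 and the phosphatase subunit gene Ppp1cb at 0.08 ± 0.17. The 9 genes of the RAF-MEK-ERK cascade had 0.04, with the kinase gene Braf at -0.20 ± 0.24 (-0.08 without WT-A). The sign of Cul3 turned with 1 library left out, between -0.09 without WT-B and 0.06 without WT-A.

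Of the ERK output genes, 14 of 15 were measured, 9 lower and 5 higher, with a median log2 fold change of -0.07. Dusp5, a nuclear phosphatase that ERK signalling induces, measured 3.23, 2.92 and 2.68 log2 CPM in the 5G2del libraries A to C, against 4.12, 4.18, 4.66 and 3.72 in WT-A to WT-D. All 3 5G2del values were below all 4 WT values, and the log2 fold change was -1.22 ± 0.27 (SE; limma unadjusted p = 0.000928, adjusted p = 0.989). It ran from -1.37 to -1.06 with 1 library left out. The immediate early genes Fos and Egr1, both highly expressed, had -0.02 ± 0.31 and 0.44 ± 0.47, with values between 0.07 (without WT-B) and 0.79 (without 5G2del-B or WT-C) for Egr1 and between -0.27 and 0.25 for Fos.

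**Figure D5:**
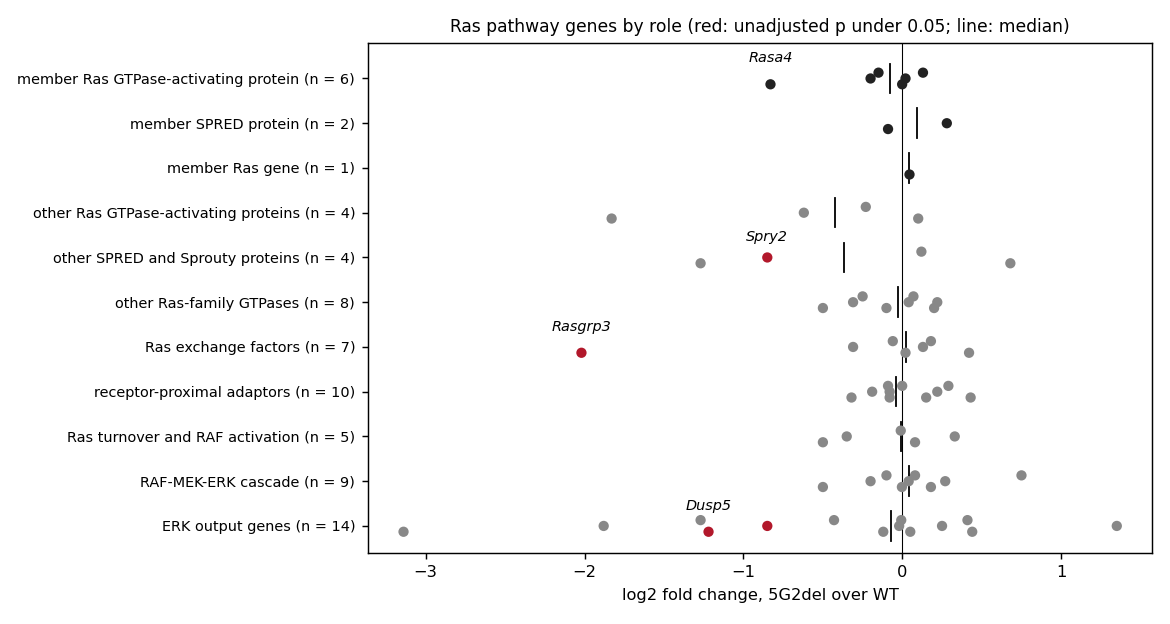
Log2 fold change, 5G2del over WT, of each measured gene by role, members at the top; red points have an unadjusted p under 0.05 and lines mark medians. Dusp5, Spry2 (shown in 2 lists) and Rasgrp3 are the red points, all below 0, and Rasa4 at -0.83 stands left of the other members.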

How the data were processed

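The authors deposited 1 table of 16760 genes with log2 CPM per library and their own comparison: a log2 fold change, test scores, a p-value and a q-value per gene. The tools in the submitters' processing notes are limma 3.50.3, RSEM 1.3.0 and STAR 2.7.9a, and the builds are GRCh38 and mm10, with no roles. For annotation, scaling and filter nothing was stated. The 7 libraries were taken as deposited. The divisor of the CPM was stepped back from the lowest value of each column on an offset of 0.5 count, and a floor of 3 counts came to between 0.0538 and 0.0860 CPM, which covers counting error only. No pair of libraries was a copy (chi-square per degree of freedom at least 63.7). The groups were compared over all genes by limma-trend (limma 3.58.1, R 4.3.3) with no covariate and Benjamini-Hochberg adjustment at 0.05. Positions came from GENCODE M21 (GRCm38), which matched all but 5 genes.

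Every member was reported. Other genes were named if their unadjusted p was under 0.05 or they were among the 2 most abundant of a list, if they lay next to Rasa4, or if they were among the 5 most like it. Genes named for shared exons, for groups that did not overlap, as Ras genes per length or among the markers (Flt3 and Nkg7) were added after their values were seen. A few genes that the rule names are not reported here. The members and lists were chosen with earlier results of these data known.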

Additional observations from a re-analysis of the deposited data

Results flagged for a closer look

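Among 36 sets of 4 WT values examined, 5 held a library far from the other 3 by Dixon's test on gap over range; chance alone flags about 1 in 20. For Rasa3, WT-D was high at 6.51 log2 CPM, against 6.03 to 6.06 in the other WT libraries. For Spred2, WT-C was low at 4.23 log2 CPM, against 4.95 to 4.99. Of genes that are not members, Dab2ip was low in WT-C, at 4.60 log2 CPM against 5.02 to 5.08 in the other WT libraries and Spry1 was low in WT-B at 1.78. In WT-B 1104 genes were undetected, where the remaining WT libraries had 105 to 226.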

How the results depend on the processing

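Rasa4 kept its direction and stayed short of the adjusted threshold in all 13 alternatives, with log2 fold changes from -1.19 to -0.36. At an unadjusted p under 0.05, 1 member, Rasa4, was counted with a weight for each library (-1.19, limma unadjusted p = 0.00629, adjusted p = 0.666) and with quantile normalization (-0.86, limma unadjusted p = 0.0497), and 0 to 1 members when single libraries were left out. The library weights were highest for 5G2del-B, at 1.7, and lowest for WT-B, at 0.341. The count over all genes past the adjusted threshold was 1 in limma without the trend, and 0 to 1 when single libraries were left out (1 without 5G2del-C). The Ras pathway count of 3 came to 6 with library weights, and 1 to 6 when single libraries were left out. Signs turned for members near 0. Rasa2 was at 0.17 and Spred1 at 0.01 with library weights, and Nf1 at -0.02 with each library centred on its median. With 1 library left out, Rasa2 ran from -0.21 to 0.22, Nf1 from -0.07 to 0.07, Spred1 from -0.23 to 0.03 and Nras from -0.05 to 0.19. Rasa1, Rasa3, Rasal3 and Spred2 kept their signs in all 13. The cause of these shifts was not tested. No paired analysis was possible because the columns carry no replicate numbers. A floor of 3 counts was at most 0.0860 CPM, and whether deeper libraries would resolve more was not tested.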
